A study of Homo sapiens with 12 samples.

Results

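The genes described here are 32 imprinted genes of the human genome, measured in MiaPaca2 cells that were left unprimed or were epigenetically primed with GTA and 5-Aza, each with or without calcipotriol (CPT). They were taken from a fixed list of symbols and matched to the Ensembl identifiers of the count tables through GENCODE. All 32 were found among the 63677 identifiers. By textbook knowledge 21 of them are expressed from the paternal allele, 6 from the maternal allele, and 5 (GRB10, GNAS, BLCAP, INPP5F and IGF2R) in a way that depends on the isoform, the tissue or the individual. PPP1R9A was counted among the 6 maternally expressed genes, although its imprinting depends on the tissue as well.

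An imprinted gene is read from only the maternal or only the paternal copy, because one parental copy of a control region carries DNA methylation set in the germ line and kept through later cell divisions. Many imprinted genes act in fetal and placental growth, with growth promoters such as IGF2 often expressed from the paternal copy and growth limiters such as PHLDA2 from the maternal copy. 5-Aza blocks the DNA methyltransferases that copy methylation to newly made DNA, and GTA is a precursor of acetate, which cells use to acetylate histones.

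MiaPaca2 is a single established line from a human pancreatic ductal carcinoma, so every group shares its genome, labelled wild type. Each of 4 groups had 3 libraries of total RNA, all taken after 24 h: the control (Con) received DMSO, the second group 1 µM CPT, the third 2 mM GTA with 1 µM 5-Aza (GTA+5-Aza), and the fourth all 3 agents at the same doses (CPT+GTA+5-Aza). GTA and 5-Aza were only given together, so their effects cannot be told apart, and "primed" below means the 6 libraries that received both. The libraries held 16162490 to 21224665 counted reads, and the labels number the 3 libraries of a group without saying whether they came from separate cultures, so p-values measure the spread between these libraries, which may be technical.

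Among marker genes, some epithelial and some mesenchymal ones were abundant and those of acinar and endocrine pancreas were absent. KRT8 held 25823 to 34350 counts in a library and VIM 91274 to 129496, whereas CDH1 held 0 to 4, EPCAM 0 to 1, and CFTR was at 0 in all 12 libraries. The other mesenchymal markers were lower, with ZEB1 at 755 to 1237 counts, SNAI2 at 242 to 424, FN1 at 41 to 68 and CDH2 at 0 to 5. All 6 markers of acinar and endocrine pancreas (PRSS1, CPA1, CELA3A, GCG, SST and PPY) and the endothelial markers PECAM1, CDH5 and KDR were at 0 throughout, and the endothelial marker VWF held 0 to 11 counts. Of the fibroblast markers COL1A2 held 12528 to 17470 counts and COL3A1 1554 to 2280, while DCN and LUM held at most 2 and 0. The summed level of the 5 mesenchymal markers was 6139 to 6680 CPM (counts relative to all counted reads of a library, with TMM scaling) in unprimed and 5378 to 5801 in primed libraries, and that of the 9 epithelial markers 2247 to 2687 and 2658 to 2840. VIM alone ran from 5308 to 6593 CPM over all libraries, so the mesenchymal sum is mostly VIM. The summed 7 fibroblast markers ran from 779.9 to 932.1 CPM unprimed and 916.6 to 1069 primed, and the 5 neuronal markers from 104.9 to 124.2 and 85.8 to 108.8. The part of these marker shifts in the results on imprinted genes was not tested.

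Priming was accompanied by higher levels of a few maternally expressed genes and of 1 paternally expressed gene, while most of the paternally expressed genes were silent or did not pass the test. In GTA+5-Aza against Con, 5 of the 32 genes rose (FAM50B, H19, PHLDA2, MEG3 and NLRP2) and 0 fell, where a rise or fall means that the quasi-likelihood test of edgeR over 17123 genes gave an adjusted p below 0.05. Over all tested genes, 9.95% rose and 7.53% fell in this comparison, that is 1703 and 1290 genes (2013 and 908 when libraries were scaled by size alone). Of the 6 maternally expressed genes 5 were tested and 4 rose. Of the 21 paternally expressed genes 11 were tested and 1 rose, and of the 5 isoform, tissue or individual dependent genes 0 rose. Among the genes that rose, MEG3, NLRP2 and FAM50B passed the filter on low counts only with the help of the primed libraries. The counts by class are therefore a description. The difference between the classes was not tested.

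In CPT+GTA+5-Aza against CPT, which shares no library with the first comparison, FAM50B, H19, PHLDA2, MEG3 and NLRP2 rose again and BLCAP fell. The background was 9.57% of tested genes higher and 7.39% lower (1639 and 1265 genes, or 1986 and 891 with scaling by library size alone). Of the 21 tested genes 6 (FAM50B, MEG3, NLRP2, MEST, SNURF and SGCE) passed the filter on low counts only with the help of the primed libraries, which favours higher values there, so the number of calls among the 21 is given as a description. When the filter saw only the 6 unprimed libraries, 15 of the 32 genes passed and 2 of them (H19 and PHLDA2) rose in each comparison, beside 9.79% and 9.43% of the 16127 genes that passed.

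**Figure D1:**
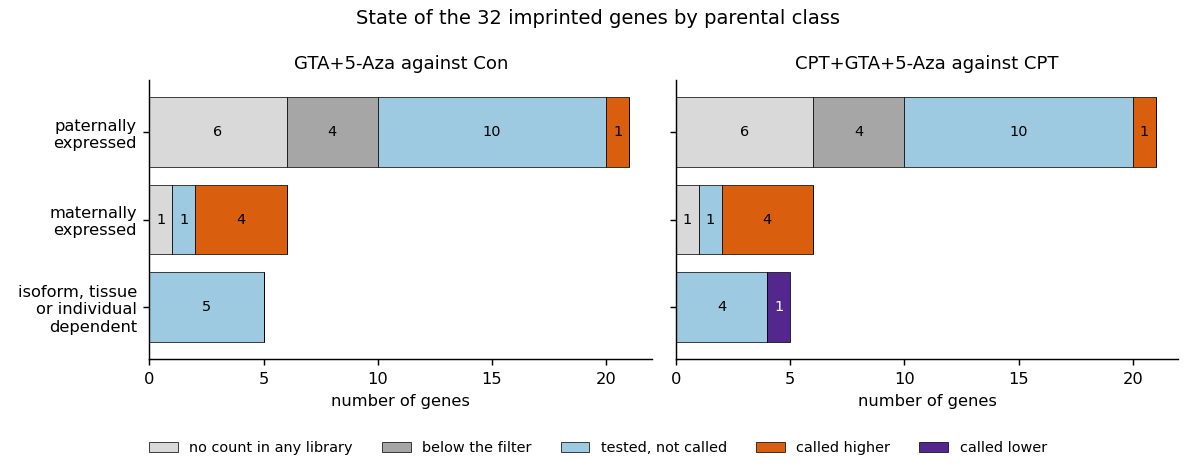
Number of imprinted genes (horizontal axis) in each state, by parental class (rows), for GTA+5-Aza against Con (left) and CPT+GTA+5-Aza against CPT (right). Of 21 paternally expressed genes, 6 had no count, 4 stayed below the filter and 1 was called higher in each comparison, whereas 4 of 6 maternally expressed genes were called higher. Among the genes called higher, MEG3, NLRP2 and FAM50B passed the filter only with the primed libraries.

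Many of the paternally expressed genes were silent or nearly so, primed or not. Of the 32 genes, 7 had no count in any of the 12 libraries. They were PLAGL1, a zinc finger factor that halts the cell cycle, DIRAS3, a RAS-related growth suppressor, the MAGE family genes NDN and MAGEL2 of 15q11, the ubiquitin peptidase gene USP29 and the zinc finger gene ZIM2 of 19q13, and the maternally expressed potassium channel gene KCNK9. A count of 0 allows up to 3 counts in a library, so lower levels of these transcripts were not detectable at this depth.

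A further 4 genes, all paternally expressed, stayed below the filter. MKRN3, a makorin of 15q11 that restrains puberty, had 0, 0 and 0 counts in Con, 0, 0 and 2 in CPT, 8, 4 and 1 in GTA+5-Aza, and 5, 0 and 4 in CPT+GTA+5-Aza. ZDBF2 had 1, 0 and 0 counts in Con, 6, 0 and 0 in CPT, 11, 8 and 2 in GTA+5-Aza, and 4, 1 and 1 in CPT+GTA+5-Aza. Counts of both genes were most often above 0 in primed libraries, yet a CPT library reached 6 for ZDBF2 and a primed library held 0 for MKRN3. PEG3, a zinc finger transcription factor, never exceeded 1 count and NAP1L5, an intronless nucleosome assembly gene, 3 counts. Without the filter none of the 4 was called by edgeR's quasi-likelihood test in any comparison, and the smallest adjusted p was 0.101, for MKRN3 in GTA+5-Aza against Con (unadjusted p = 0.0116).

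Start sites of genes that rose and of genes that stayed silent are shown to let their content of CG dinucleotides, the sites at which DNA methyltransferases act, be read directly. RefSeq windows of 300 bases (250 before the start and 50 after it, GRCh38.p14) were found for 22 of the 32 genes, and the most upstream window was taken where a gene had several. The 150 bases before the start are printed 5′ to 3′ with each CG in capitals, for 4 genes that rose (FAM50B at chr6:3849223-3849372 on the plus strand, MEG3 at chr14:100825958-100826107 on the plus strand, H19 at chr11:2001267-2001416 on the minus strand and NLRP2 at chr19:54965134-54965283 on the plus strand) and 2 without a count (NDN at chr15:23687306-23687455 and DIRAS3 at chr1:68050628-68050777, both on the minus strand). The RefSeq starts used for MEG3, H19, NLRP2 and DIRAS3 lie inside longer GENCODE gene bodies, whereas those of FAM50B and NDN match the GENCODE starts.
FAM50B: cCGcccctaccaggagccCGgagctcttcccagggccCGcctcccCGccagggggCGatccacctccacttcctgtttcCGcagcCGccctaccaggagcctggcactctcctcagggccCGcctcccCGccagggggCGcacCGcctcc
MEG3: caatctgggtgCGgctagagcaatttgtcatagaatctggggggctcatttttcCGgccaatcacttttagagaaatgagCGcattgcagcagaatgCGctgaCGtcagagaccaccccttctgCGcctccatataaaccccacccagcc
H19: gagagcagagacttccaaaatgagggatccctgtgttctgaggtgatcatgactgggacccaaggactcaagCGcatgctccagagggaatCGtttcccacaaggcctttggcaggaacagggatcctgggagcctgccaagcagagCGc
NLRP2: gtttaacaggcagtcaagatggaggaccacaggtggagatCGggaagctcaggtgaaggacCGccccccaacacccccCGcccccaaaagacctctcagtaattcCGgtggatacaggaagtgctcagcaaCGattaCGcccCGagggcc
NDN: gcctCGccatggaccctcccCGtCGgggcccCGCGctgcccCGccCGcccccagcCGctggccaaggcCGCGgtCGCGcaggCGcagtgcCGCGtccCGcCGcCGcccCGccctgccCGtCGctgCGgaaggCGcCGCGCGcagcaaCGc
DIRAS3: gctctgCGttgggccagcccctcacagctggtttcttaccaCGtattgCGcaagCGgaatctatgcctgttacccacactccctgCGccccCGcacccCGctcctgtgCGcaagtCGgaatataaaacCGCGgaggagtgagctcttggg

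In these 150-base stretches FAM50B held 11 CG dinucleotides, MEG3 6, H19 3, NLRP2 7, NDN 27 and DIRAS3 11. Among these few stretches the highest number belonged to NDN, which had no count, and the lowest to H19, which rose. The stretches are examples, and a link between CG content and change was not tested. Over the full 300-base windows the 4 genes that rose and had a window held a median of 15.5 CG (range 6 to 23), the 10 windows of tested genes that did not rise a median of 21.5 (range 7 to 44), the 5 windows of genes without a count a median of 21 (range 9 to 35), and all 35116 RefSeq windows a median of 14. The motif TGCCGC, the core bound by ZFP57, a protein that guards methylated imprints, was searched on both strands. It occurred in 11 of the 22 windows and in 16.7% of all windows. These 2 sets are unlike, since 1 window was taken per imprinted gene but every window of the other genes. The motif holds a CG, and the 22 windows were richer in CG, with a median of 19 against 14. The windows were set by start sites and not by the control regions of imprinting, and a difference in motif content was not tested. By state it was found in 1 of the 4 windows of genes that rose (MEG3), 7 of the 10 of tested genes that did not, 1 of the 3 of genes below the filter and 2 of the 5 of genes without a count. ZFP57 itself had no count in any library. DNA methylation was not measured in these libraries.

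Levels per length were compared as TMM-scaled CPM per kilobase of merged exons (CPM per kb). In Con the highest were PHLDA2 at 28.3 ± 3.29 (SD, n = 3) and GNAS, the stimulatory G protein alpha subunit, at 26.1 ± 0.756, which did not differ by more than their summed SDs. IGF2R, the receptor that clears IGF2, followed at 11.3 ± 0.267, then H19 at 6.24 ± 0.699 and BLCAP at 5.21 ± 0.213, each step larger than the summed SDs. PEG10, a gene derived from a retrotransposon, stood at 4.60 ± 0.342 and INPP5F, a phosphoinositide phosphatase, at 4.57 ± 0.342, and these neighbours overlapped.

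Below them came L3MBTL1 (1.02 ± 0.0707), NNAT (0.888 ± 0.355) and GRB10 (0.586 ± 0.116), in which each step was within the summed SDs of the 2 neighbours, while the steps to the genes above and below were larger. Each step from SNURF (0.224 ± 0.0422) down through SNRPN, PPP1R9A, KCNQ1OT1, IGF2, DLK1, MEST and SGCE to MEG3 (0.00597 ± 0.00862) was likewise within the summed SDs. FAM50B and NLRP2 were at 0 in Con. After GTA+5-Aza, FAM50B reached 0.526 ± 0.184 CPM per kb, a level per length near that of GRB10 in Con. In CPM, FAM50B stood at 1.025 there and GRB10, with longer merged exons, at 5.742 in Con.

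**Figure D2:**
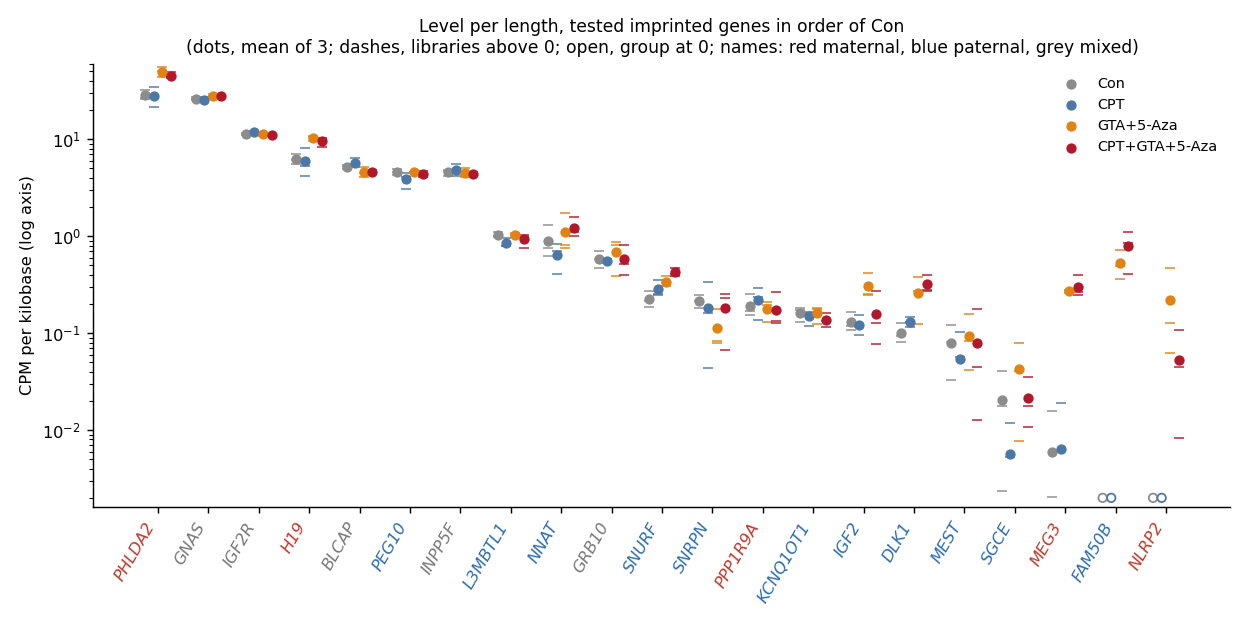
Level of the 21 tested imprinted genes in CPM per kilobase of merged exons (vertical log axis), ordered by the Con mean. The order depends on the merged exon length, which covers all annotated transcripts of a gene. Filled dots are group means of 3 libraries, dashes are libraries above 0 and open dots mark groups at 0, and MEG3, FAM50B and NLRP2 move from the right-hand bottom of the order in Con to higher levels in both primed groups.

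MEG3, a long noncoding RNA expressed from the maternal copy of 14q32 (ENSG00000214548, GENCODE gene body chr14:100779410-100861031, plus strand), was near absent from unprimed cells and present in every primed library. It had 7, 1 and 0 counts in Con, 8, 0 and 0 in CPT, 114, 129 and 113 in GTA+5-Aza, and 174, 101 and 100 in CPT+GTA+5-Aza. Every primed library held at least 100 counts and every unprimed library at most 8, with the 2 highest unprimed values both in libraries numbered 1. Its log2 fold change was 5.50 (SE 0.57, adjusted p = 1.90e-07) in GTA+5-Aza against Con and 5.57 (SE 0.57, adjusted p = 1.42e-07) in CPT+GTA+5-Aza against CPT.

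The size of the MEG3 change rested on few unprimed reads. Without Con replicate 1 the log2 fold change against Con was 7.68, and without CPT replicate 2 that against CPT was 4.96. Without CPT replicate 1 the CPT group was at 0, and CPT+GTA+5-Aza was at least 45.1-fold higher than a floor of 3 counts in each CPT library. Because these are libraries of RNA from whole cultures, more cells with a transcript and more transcript per cell cannot be told apart, for MEG3 and for all genes below, and counts per gene do not say which parental copy was read.

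H19, the long noncoding RNA of the H19/IGF2 domain on the maternal copy of 11p15 (ENSG00000130600, chr11:1995166-2004552, minus strand), was already abundant in unprimed cells. Its counts were 368, 507 and 438 in Con, 337, 572 and 266 in CPT, 693, 656 and 647 in GTA+5-Aza, and 656, 625 and 472 in CPT+GTA+5-Aza. After scaling, the lowest primed library stood at 28.9 CPM and the highest unprimed library, CPT replicate 2, at 28.1 CPM, so the groups did not overlap but came close. The mean rose from 21.6 ± 2.42 CPM in Con to 35.5 ± 2.28 in GTA+5-Aza (SD, n = 3), a log2 fold change of 0.71 (SE 0.15, adjusted p = 0.00166), and the change with CPT present was 0.69 (SE 0.16, adjusted p = 0.00253).

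PHLDA2, a PH domain protein that limits placental growth and lies in the KCNQ1OT1 domain of 11p15 (ENSG00000181649, chr11:2928273-2929420, minus strand), changed by a similar amount. It had 465, 619 and 495 counts in Con, 359, 641 and 474 in CPT, 750, 918 and 907 in GTA+5-Aza, and 755, 793 and 639 in CPT+GTA+5-Aza. The unprimed libraries ranged from 19.7 to 31.5 CPM and the primed ones from 39.1 to 51.2 CPM, with no overlap. The log2 fold change was 0.81 (SE 0.13, adjusted p = 6.96e-05) in GTA+5-Aza against Con and 0.68 (SE 0.13, adjusted p = 0.000576) in CPT+GTA+5-Aza against CPT.

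NLRP2, a NOD-like receptor gene of 19q13 (ENSG00000022556, chr19:54953130-55001142, plus strand), was at 0 in all 6 unprimed libraries and uneven in primed ones. GTA+5-Aza libraries held 56, 16 and 7 counts and CPT+GTA+5-Aza libraries 1, 5 and 11. The highest library was 7.57 times the lowest in GTA+5-Aza and 12.8 times in CPT+GTA+5-Aza on the CPM scale, against 1.13 and 1.23 times for H19. Against the floor of 3 counts in each library, NLRP2 was at least 9.38-fold higher in GTA+5-Aza than in Con (adjusted p = 0.000802) and at least 2.12-fold higher in CPT+GTA+5-Aza than in CPT (adjusted p = 0.0285).

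Single libraries weighed on NLRP2. Without GTA+5-Aza replicate 1 the bound against Con was at least 4.02-fold (adjusted p = 0.0155). Against CPT the call was lost without CPT replicate 1 (adjusted p = 0.0791), CPT replicate 3 (0.0575), CPT+GTA+5-Aza replicate 2 (0.0510) or CPT+GTA+5-Aza replicate 3 (0.135), and without the last of these the bound was at least 1.06-fold. PPP1R9A, an actin-binding scaffold, was the other tested gene counted as maternally expressed. It had 28 to 67 counts in unprimed and 23 to 52 in primed libraries. PPP1R9A was not called, with log2 fold changes of -0.10 (SE 0.37) and -0.35 (SE 0.37).

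**Figure D3:**
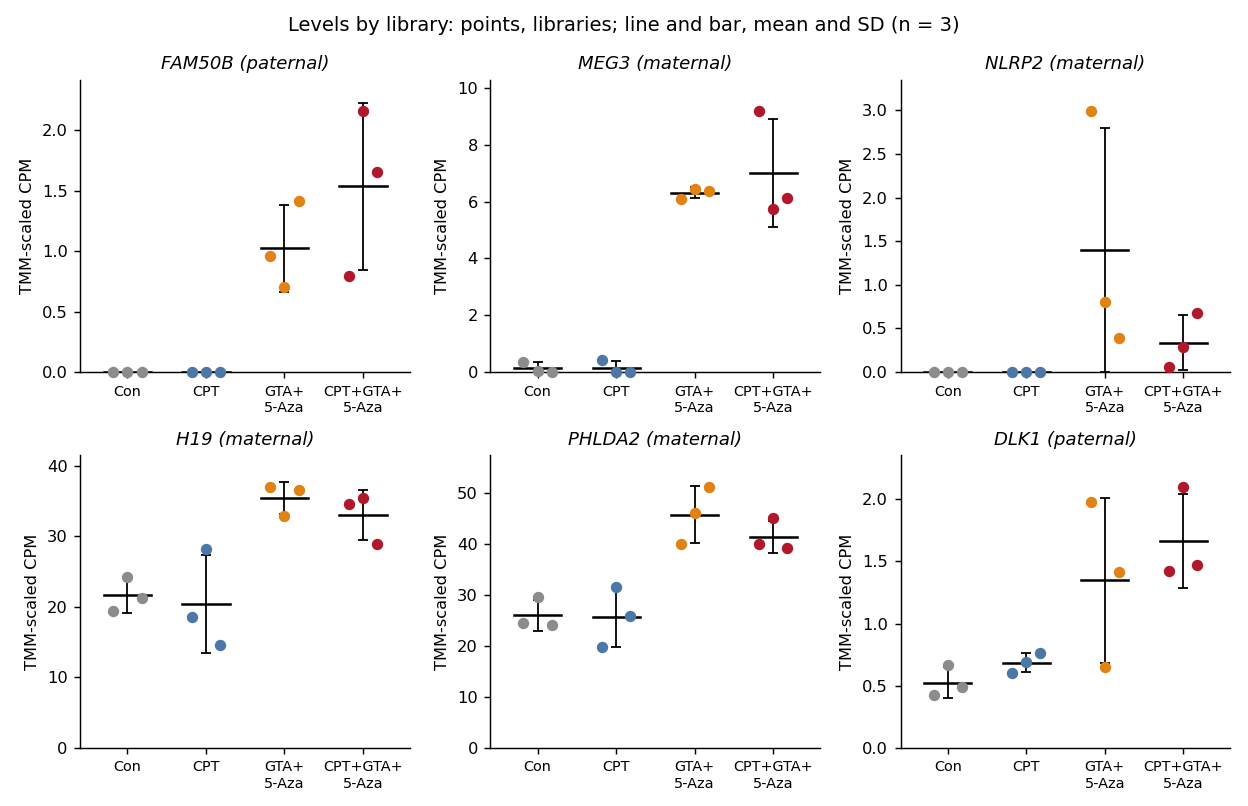
TMM-scaled CPM (vertical axis, from 0) in each library for MEG3, NLRP2, H19, PHLDA2, FAM50B and DLK1 in the 4 groups, with the mean and SD of 3 libraries. In FAM50B, MEG3, NLRP2, H19 and PHLDA2 all 6 primed libraries lie above all 6 unprimed ones, with NLRP2 spread most widely, whereas DLK1 overlaps between the primed and unprimed libraries. The lowest primed library of NLRP2 held 1 count, below the floor of 3 counts.

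FAM50B, an intronless retrogene copy of the X-linked gene FAM50A, was the paternally expressed gene that rose (ENSG00000145945, chr6:3849373-3851320, plus strand, with no exon of another gene over it). It was at 0 in all 3 Con and all 3 CPT libraries, and held 18, 14 and 25 counts in GTA+5-Aza and 15, 38 and 27 in CPT+GTA+5-Aza. Every primed library was thus above every unprimed one, at 0.701 to 2.16 CPM. FAM50B was at least 6.88-fold higher in GTA+5-Aza than in Con (adjusted p = 0.000197) and at least 9.67-fold higher in CPT+GTA+5-Aza than in CPT (adjusted p = 7.18e-05).

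Reads of a retrogene may be shared with its parent, so FAM50A is given beside it. FAM50A stood at 54.7 to 69.2 CPM in unprimed and 77.2 to 86.2 CPM in primed libraries, with log2 fold changes of 0.43 (SE 0.08, adjusted p = 0.000464) and 0.26 (SE 0.08, adjusted p = 0.0280). The unprimed libraries, with 0 FAM50B counts, had the lower FAM50A levels after scaling and held 1041 to 1406 FAM50A counts. Primed libraries held 1261 to 1634 FAM50A and 14 to 38 FAM50B counts. Whether any FAM50B read came from FAM50A was not tested.

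DLK1, a transmembrane protein of the Notch ligand family and the paternally expressed neighbour of MEG3 (ENSG00000185559, chr14:100725705-100738224, plus strand), had 8, 14 and 10 counts in Con, 11, 14 and 14 in CPT, 37, 13 and 25 in GTA+5-Aza, and 27, 37 and 24 in CPT+GTA+5-Aza. All CPT+GTA+5-Aza libraries were above the unprimed ones, but GTA+5-Aza replicate 2 lay within the unprimed range. The log2 fold change was 1.34 (SE 0.52, adjusted p = 0.0757) in GTA+5-Aza against Con and 1.27 (SE 0.50, adjusted p = 0.0848) in CPT+GTA+5-Aza against CPT, so DLK1 was not called in either. It rose in CPT+GTA+5-Aza against Con (log2 fold change 1.65, SE 0.51, adjusted p = 0.0266), a call lost without Con replicate 1 (0.0935), Con replicate 3 (0.0812) or CPT+GTA+5-Aza replicate 2 (0.119).

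IGF2, the fetal growth factor (ENSG00000167244, chr11:2129112-2158391, minus strand), had 16, 25 and 16 counts in Con, 20, 14 and 15 in CPT, 33, 36 and 53 in GTA+5-Aza, and 37, 16 and 9 in CPT+GTA+5-Aza. GTA+5-Aza libraries all lay above Con, whereas CPT+GTA+5-Aza libraries spanned the unprimed range. The log2 fold change was 1.21 (SE 0.47, adjusted p = 0.0748) without CPT and 0.40 (SE 0.49, adjusted p = 0.643) with it, and the difference between these changes was not called (-0.81, SE 0.68, unadjusted p = 0.243). Some 25.7% of the IGF2 exon length lies under INS-IGF2 and ENSG00000240801 on the same strand, where reads of these genes cannot be told apart.

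The other 8 paternally expressed genes tested were not called in GTA+5-Aza against Con or CPT+GTA+5-Aza against CPT. PEG10 (412 to 678 counts in unprimed and 449 to 612 in primed libraries), KCNQ1OT1, the long noncoding RNA antisense to KCNQ1 (199 to 339 and 177 to 327), and L3MBTL1, a chromatin compaction protein (226 to 360 and 194 to 323), were well measured, with log2 fold changes between -0.12 and 0.18 and SEs of at most 0.17. NNAT, a proteolipid of the endoplasmic reticulum, had 11 to 36 and 20 to 41 counts.

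SNRPN, SNURF, MEST and SGCE never exceeded 33 counts in a library. SNRPN encodes a spliceosomal protein and SNURF a small protein read from the same transcript, and 33.6% of the exon length of SNRPN and 52.1% of that of SNURF lie under other genes, so their reads may have been split or left out. SNURF was at 6 to 10 counts in unprimed and 9 to 13 in primed libraries, with log2 fold changes of 0.60 (SE 0.63) and 0.58 (SE 0.61). The SEs of these 4 genes ran from 0.61 to 1.02, so changes of the size seen for H19 were not detectable at this depth.

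The 5 isoform, tissue or individual dependent genes were expressed in every library, and 1 of them was called, in 1 comparison. GNAS ranged from 544.5 to 605.5 CPM in unprimed and 588.0 to 653.4 CPM in primed libraries, with log2 fold changes of 0.10 (SE 0.05) and 0.12 (SE 0.05), neither called. IGF2R had log2 fold changes of -0.0024 (SE 0.05) and -0.09 (SE 0.05), and INPP5F and GRB10, an adaptor that dampens insulin and IGF receptor signalling, were not called either. Gene totals of GNAS sum several transcripts with different parental expression, which these counts do not separate.

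BLCAP, the host gene whose intron holds NNAT (ENSG00000166619, chr20:37492472-37527931, minus strand), had 790, 821 and 871 counts in Con, 768, 831 and 912 in CPT, 606, 812 and 632 in GTA+5-Aza, and 720, 635 and 567 in CPT+GTA+5-Aza. After scaling, the lowest CPT library stood at 40.9 CPM, above every CPT+GTA+5-Aza library, whereas GTA+5-Aza overlapped with Con. It fell with a log2 fold change of -0.29 (SE 0.10, adjusted p = 0.0495), close to the threshold, and leaving out Con, GTA+5-Aza, CPT or CPT+GTA+5-Aza libraries ended the call in 10 of 12 cases (adjusted p up to 0.235, without CPT replicate 3). In GTA+5-Aza against Con its change was -0.18 (SE 0.10, adjusted p = 0.252).

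**Figure D4:**
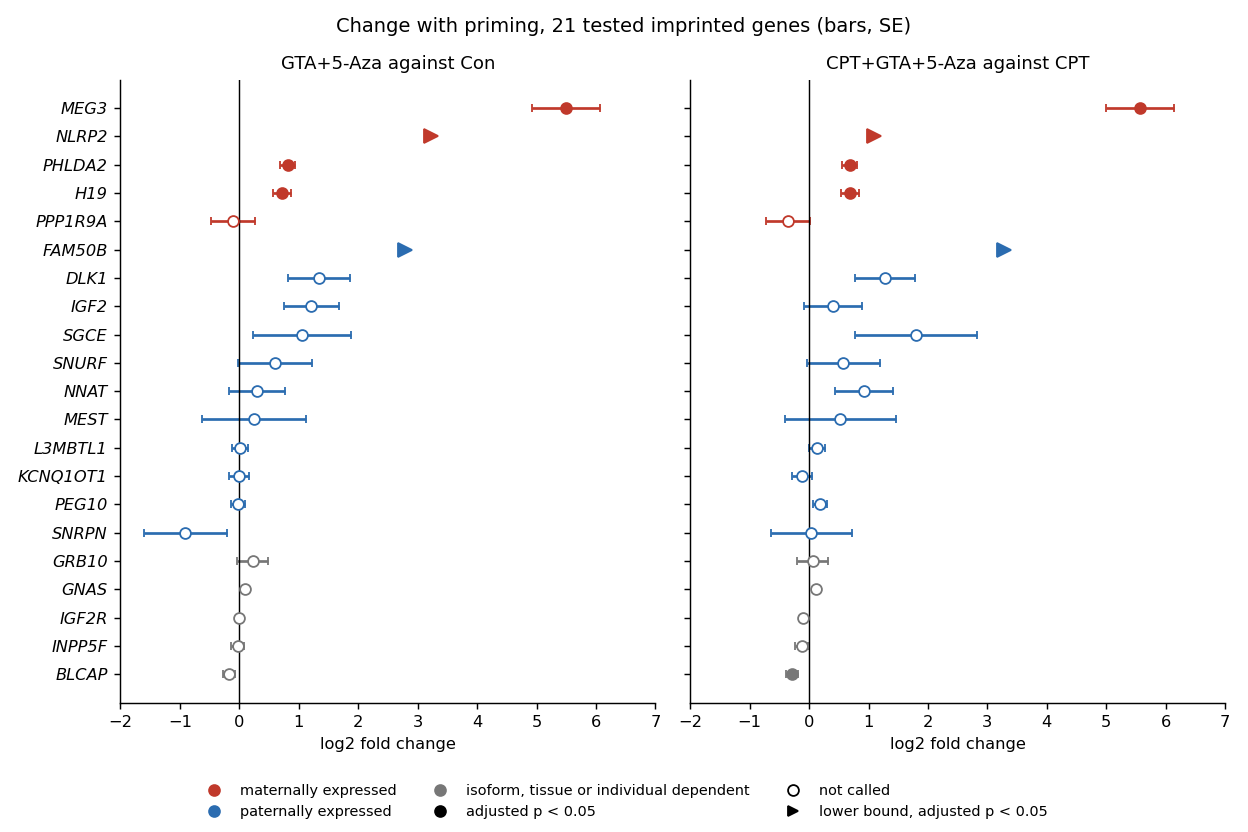
Log2 fold change (horizontal axis) of the 21 tested imprinted genes in GTA+5-Aza against Con (left) and CPT+GTA+5-Aza against CPT (right), with bars for the SE. Filled symbols passed an adjusted p of 0.05, and arrowheads are lower bounds for FAM50B and NLRP2, whose unprimed libraries were at 0. The filled symbols right of 0 are MEG3, NLRP2, PHLDA2, H19 and FAM50B in both panels, and BLCAP is filled left of 0 in the right panel.

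Among the 15 genes that passed the filter on the unprimed libraries alone, the 7 paternally expressed genes had median log2 fold changes of 0.02 and 0.18 in the 2 comparisons, with 4 and 6 of them above 0 and 0 called. For the 3 maternally expressed genes (H19, PHLDA2 and PPP1R9A) the medians, 0.71 and 0.68, were the values of H19 and PHLDA2 in turn. H19 and PHLDA2 lie in the same chromosome band, and PPP1R9A was at -0.10 and -0.35. These medians therefore restate the called genes of one region and do not describe a class. The 5 isoform, tissue or individual dependent genes had medians of -0.0024 and -0.09, beside -0.0042 and -0.0066 for all genes that passed in this way. By the thresholds of the study (fold change above 1.5 and unadjusted P below 0.05), 7 of the 32 genes were higher in GTA+5-Aza against Con, which adds DLK1 and IGF2, and 6 in CPT+GTA+5-Aza against CPT, which adds DLK1. The same thresholds took 6.82% and 6.93% of all tested genes as higher. Here the fold is the estimate and P is that of the quasi-likelihood test against no change. The paper words its rule as a fold change significantly above 1.5, which may be stricter. Libraries of the compared groups did not overlap for 7 genes that were higher (FAM50B, H19, MEG3, NLRP2, PHLDA2, IGF2 and SNURF) and 1 that was lower (SNRPN) in GTA+5-Aza against Con, beside 18.1% and 16% of all tested genes. FAM50B, MEG3, NLRP2 and SNURF among them passed the filter only with the primed libraries. In CPT+GTA+5-Aza against CPT they did not overlap for 8 higher (the same list with DLK1 and NNAT in place of IGF2) and 2 lower (BLCAP and IGF2R), beside 16.4% and 14.4%. All 6 primed libraries lay above all 6 unprimed ones for FAM50B, H19, MEG3, NLRP2 and PHLDA2, a pattern shown by 8.04% of all tested genes. For NLRP2 this rests on 1 count in CPT+GTA+5-Aza replicate 1, which is below the floor of 3 counts and cannot be told apart from 0.

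The full combination against Con, which shares libraries with both comparisons above, gave 6 genes higher (FAM50B, H19, PHLDA2, MEG3, NLRP2 and DLK1) and 0 lower, beside 9.62% of tested genes higher and 7.16% lower (1648 and 1226 genes, or 1994 and 929 with scaling by library size alone). Log2 fold changes were 5.66 for MEG3 (SE 0.57, adjusted p = 9.18e-08), 0.61 for H19 (SE 0.15, adjusted p = 0.00640) and 0.67 for PHLDA2 (SE 0.13, adjusted p = 0.000656). FAM50B was at least 10.3-fold higher (adjusted p = 5.77e-05). NLRP2 was at least 2.26-fold higher (adjusted p = 0.0253), a call lost without any one Con library (0.0617 to 0.0766) or CPT+GTA+5-Aza replicate 3 (0.129).

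Calcipotriol was not accompanied by a called change of any imprinted gene, in unprimed or in primed cells. In CPT against Con the quasi-likelihood test of edgeR called 0 of the 32 genes and 0 of 17123 genes in all, while DESeq2 and the likelihood ratio test of edgeR each called 0 of the 32 and 4 of all genes. An unadjusted p below 0.05 was reached by 1 imprinted gene, PEG10 (log2 fold change -0.25, SE 0.12, unadjusted p = 0.0420), and 4.28% of all tested genes. The log2 difference was -0.08 for H19 (95% interval -0.39 to 0.23) and -0.01 for PHLDA2 (-0.27 to 0.25), while MEG3 (-1.84 to 2.01) was too rare in both groups for a narrow interval.

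In CPT+GTA+5-Aza against GTA+5-Aza the quasi-likelihood test of edgeR again called 0 imprinted genes and 0 genes in all, with 0 of the 32 called by DESeq2 or the likelihood ratio test either. NLRP2 was the 1 imprinted gene below an unadjusted p of 0.05 (log2 fold change -2.06, SE 0.85, unadjusted p = 0.0235, adjusted p = 0.9998), beside 2.71% of tested genes. It met the thresholds of the study, as did 0.66% of genes in that direction, and its 2 groups overlapped. The log2 difference was 0.16 for MEG3 (95% interval -0.56 to 0.87), 0.58 for FAM50B (-0.59 to 1.75), -0.10 for H19 (-0.40 to 0.19) and -0.15 for PHLDA2 (-0.40 to 0.10). In the interaction of CPT and priming, the quasi-likelihood and likelihood ratio tests of edgeR and DESeq2 called 0 imprinted genes, with 0 below an unadjusted p of 0.05 against 2.63% of all tested genes, so whether priming changed them more or less with CPT was not resolved.

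In each of 2 imprinted domains several neighbours rose and others did not. In 11p15, H19 and PHLDA2 rose with the maternally expressed gene SLC22A18, a transporter next to PHLDA2 (log2 fold changes 0.65, SE 0.15, adjusted p = 0.00358, and 0.78, SE 0.15, adjusted p = 0.000828). CDKN1C, a maternally expressed cyclin-dependent kinase inhibitor, rose in CPT+GTA+5-Aza against CPT (0.57, SE 0.18, adjusted p = 0.0246) but was not called in GTA+5-Aza against Con (0.40, SE 0.17, adjusted p = 0.103). KCNQ1, KCNQ1OT1 and OSBPL5 of the same domain were not called, with log2 fold changes between -0.13 and 0, and INS, IGF2-AS and ASCL2 held at most 1 count in a library.

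In 14q32, MEG3 rose together with RTL1, a paternally expressed gene derived from a retrotransposon, while DLK1 was not called in either of these comparisons. RTL1 had 9, 8 and 13 counts in Con and 2, 7 and 9 in CPT. It had 40, 51 and 34 in GTA+5-Aza, and 43, 22 and 37 in CPT+GTA+5-Aza. Primed and unprimed libraries did not overlap, a pattern shown by 8.04% of all tested genes. RTL1 passed the filter on low counts only with the help of the primed libraries, which favours higher values there. Its log2 fold changes were 2.14 (SE 0.49, adjusted p = 0.00279) and 2.58 (SE 0.52, adjusted p = 0.000963). Since 32.8% of the RTL1 exon length lies under antisense transcripts and the strand setting of the counting is not given in the sources used here, these cannot be told apart. MEG8 held at most 4 counts and MEG9 at most 11, and DIO3 had none.

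**Figure D5:**
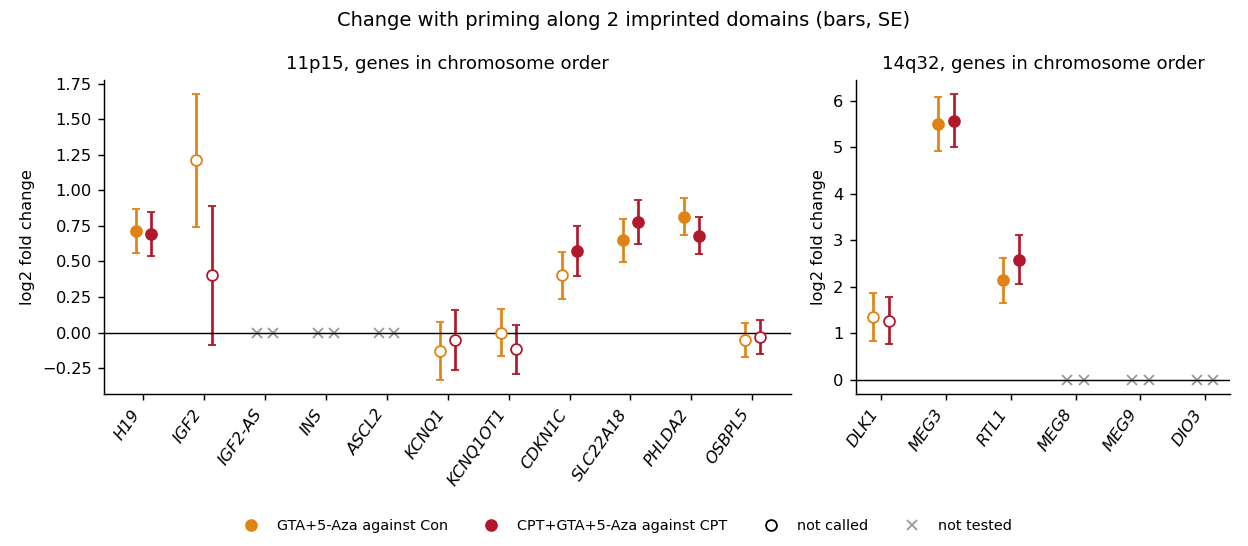
Log2 fold change (vertical axes, with SE bars, on different scales) of imprinted genes in chromosome order in 11p15 (left) and 14q32 (right), for GTA+5-Aza against Con (orange) and CPT+GTA+5-Aza against CPT (red). Filled points passed an adjusted p of 0.05 and crosses mark genes that were not tested. H19, SLC22A18, PHLDA2, MEG3 and RTL1 are filled in both comparisons while KCNQ1, KCNQ1OT1 and OSBPL5 lie near 0. MEG3 and RTL1 passed the filter only with the primed libraries.

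Further imprinted genes were read from a second list of 47 symbols, of which 42 matched, 11 had no count and 19 were tested. In GTA+5-Aza against Con, 3 rose (SLC22A18, WT1 and RTL1) and 3 fell (UBE3A, RB1 and TRAPPC9), beside 9.95% and 7.53% of all tested genes. With CPT present, 5 rose (SLC22A18, CDKN1C, WT1, SNHG14 and RTL1) and 4 fell (UBE3A, RB1, COPG2 and TRAPPC9), beside 9.57% and 7.39%. Of these RTL1 passed the filter only with the primed libraries. WT1, a zinc finger transcription factor of kidney development, had log2 fold changes of 1.58 (SE 0.24, adjusted p = 4.75e-05) and 1.60 (SE 0.25, adjusted p = 5.25e-05). In the same order the changes were -0.76 and -0.76 for TRAPPC9, -0.50 and -0.29 for RB1, and -0.28 and -0.33 for UBE3A. This second list was not divided by parental class, although SLC22A18, CDKN1C and RTL1 are given a class above. The list's medians, 0.02 and -0.04, lay near those of all tested genes.

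Of 23 genes for imprint protection and upkeep of DNA methylation, 21 matched and 15 were tested. In GTA+5-Aza against Con 1 rose and 2 fell, beside 9.95% and 7.53% of all tested genes, and in CPT+GTA+5-Aza against CPT 1 rose and 1 fell, beside 9.57% and 7.39%. DNMT3B, a de novo DNA methyltransferase, rose in GTA+5-Aza against Con (log2 fold change 0.49, adjusted p = 0.00146) and CPT+GTA+5-Aza against CPT (0.31, adjusted p = 0.0429). SMCHD1, a chromatin protein needed at some imprinted clusters, fell in both (-0.32, adjusted p = 0.00211, and -0.31, adjusted p = 0.00342). ARID4A, a chromatin protein linked to the 15q11 imprint, fell in GTA+5-Aza against Con (-0.36, adjusted p = 0.0203), and its relative ARID4B fell by 0.30 on the log2 scale (adjusted p = 0.0176) between Con and the full combination. The other 11 tested genes were not called in any of these comparisons.

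Tested genes within 1 Mb that are on neither list of imprinted genes were counted around the 5 imprinted genes that rose, to be read beside the 9.95% higher and 7.53% lower of all tested genes. In GTA+5-Aza against Con, around MEG3 0 of 17 tested neighbours rose and 4 fell, around H19 1 of 22 rose and 3 fell, around PHLDA2 1 of 18 rose and 2 fell, and around FAM50B 2 of 24 rose and 4 fell. Around NLRP2, in the gene-dense 19q13, 7 of 57 neighbours rose and 0 fell. With CPT present the counts were 0 and 2 for MEG3, 1 and 3 for H19, 1 and 2 for PHLDA2, 4 and 4 for FAM50B, and 9 and 0 for NLRP2, beside 9.57% and 7.39% of all tested genes. The windows of H19 and PHLDA2 overlap and share genes.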

How the data were processed

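Per the labels and the study's methods, total RNA was sequenced in pairs of reads, trimmed with Trim Galore, aligned to GRCh38 with HISAT2 2.2.1 and counted with HTSeq. The deposited files hold raw counts per Ensembl gene, made by the authors, 1 file per library. The strand setting and annotation release are not given in the sources used here. Rows without a gene identifier held 0.0% of reads. Symbols came from GENCODE 44, which holds 52181 of the 63677 identifiers, and merged exon lengths from the same annotation.

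All 12 libraries entered 1 fit in edgeR 4.0.16 (R 4.3.3): TMM scaling, filterByExpr on the 4 groups (17123 genes), quasi-likelihood test, Benjamini-Hochberg adjustment over all tested genes and a call at an adjusted p below 0.05. The script was tested on simulated data. DESeq2 1.42.0 and the other alternatives, listed after the report, were other tests, scalings, filters, samples, a block, a GC correction and leaving out each library. For genes at 0 throughout a group, the fold is a bound against 3 counts per library, which covers counting error only.

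Genes with an adjusted p below 0.05 in any comparison are given in every library, and others by ranges, with values where they met the study's thresholds. From the other lists only called genes are named, beside ZFP57 and the genes of 11p15 and 14q32, which were chosen after their values were seen. The members, their parental classes (from textbook knowledge) and the other lists were chosen with earlier results of these data known. Within groups the libraries correlated at 0.989 to 0.994 across genes (Pearson, log scale), and all 12 replicate pairs differed by more than sampling noise (chi-square per degree of freedom 3.99 to 18.1). Of 18 same-numbered pairs of libraries, 1 deviated together with r over 0.1 (range -0.0844 to 0.117), so the numbers were not taken to pair the samples.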

Additional observations from a re-analysis of the deposited data

How the results depend on the processing

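FAM50B, H19, MEG3 and PHLDA2 were called higher in all 21 alternatives of each of the 3 comparisons of primed with unprimed libraries. No called direction reversed. FAM50B and MEG3 passed the filter of the main fit only with the primed libraries. Some alternatives left out a library that was not in the comparison. Depth limits FAM50B, NLRP2, DLK1, IGF2 and the genes below the filter, which rest on few reads per library. The replicate block (same-numbered libraries, which share only a number) ended the fall of BLCAP (0 genes lower in CPT+GTA+5-Aza against CPT) and changed no other call of the 32 genes. Scaling by library size alone, no filter, only the 2 groups in the fit and the study's thresholds also gave 0 lower there, against 1, and leaving out single libraries gave 0 to 1. Paternally expressed genes called higher numbered 1 in GTA+5-Aza against Con, 2 with DESeq2 (DLK1 added) and when the fit held just the 2 groups compared (IGF2 added), 3 with the likelihood ratio test and with the study's thresholds (both added), and 1 to 2 without single libraries. In CPT+GTA+5-Aza against CPT they numbered 1, and 2 with the likelihood ratio test and the study's thresholds (DLK1 added). In CPT+GTA+5-Aza against GTA+5-Aza the study's thresholds gave 1 lower (NLRP2), against 0. The stricter filter left NLRP2 untested, as did the fits of 2 groups where 1 was unprimed. Scaling by library size alone and leaving out CPT replicate 3 each called GNAS higher in CPT+GTA+5-Aza against CPT. The causes of these changes were not tested. Without single libraries, all genes called higher in GTA+5-Aza against Con numbered 1100 to 1999 (1703 with all libraries) and lower 807 to 1649 (1290). Genes lower numbered 766 to 1715 in CPT+GTA+5-Aza against CPT (1265) and 785 to 1595 in CPT+GTA+5-Aza against Con (1226).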
